A study of Mus musculus with 8 samples.

Results

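A set of 31 genes that mark the development of B cells was followed in RNA of whole inner ears taken from mice at postnatal day 14. The genes were chosen by name, and all 31 were among the 47517 gene symbols in each of the 8 count files. They were divided by the stage at which each is best known. There were 9 precursor-stage genes, 8 mature-stage genes, 12 genes used at several B cell stages and 2 to which no stage was given. The 4 wild-type samples came from untreated littermate controls. The 4 mutant samples came from untreated heterozygous mice with a frameshift that alters thyroid hormone receptor α1 (TRα1), a product of Thra. The labels name no strain or allele, and leave unsaid how many animals or ears went into a sample. Sample titles came in 2 forms, with 1 number (replicates 1 and 4 of both genotypes) or with 2 (replicates 2 and 3), and the meaning of the numbers is not given.

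B cells arise in the marrow, which in a young mouse also fills spaces of the bone around the inner ear. A progenitor committed by the transcription factors EBF1 and PAX5 cuts and joins its immunoglobulin heavy chain genes with the RAG recombinase while terminal transferase adds bases at the joints. The new heavy chain is then tested on the surface together with a surrogate light chain, made of VPREB and λ5 proteins, and the CD79A and CD79B signalling chains. Cells that pass rearrange a light chain gene, shut off the surrogate and become immature and then mature B cells with surface IgM, CD20 and receptors for survival signals. In earlier work TRα was linked to the number of B cell precursors in mouse marrow, which is given here as background only.

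The surrogate light chain genes and Dntt had the most negative log2 fold changes among the precursor-stage genes. The bases before their transcription start sites are therefore shown, from RefSeq on GRCm38.p6, each read 5′ to 3′ on the strand of the gene. Positions count back from -1, the base before the RefSeq start. Exons of protein-coding GENCODE transcripts were left out, so Vpreb2 ends at position -138, and the other windows run from -250 to -1. The Vpreb1 and Vpreb3 windows lie inside the longer gene that GENCODE annotates, outside its protein-coding exons. Capitals mark matches, on either strand, to the EBF core CCCNNGGG, the E-box CAGGTG bound by E2A-type factors, the PU.1 site GAGGAA and the octamer ATTTGCAT.
Vpreb1, 250 bases, chr16:16869256-16869505, minus strand: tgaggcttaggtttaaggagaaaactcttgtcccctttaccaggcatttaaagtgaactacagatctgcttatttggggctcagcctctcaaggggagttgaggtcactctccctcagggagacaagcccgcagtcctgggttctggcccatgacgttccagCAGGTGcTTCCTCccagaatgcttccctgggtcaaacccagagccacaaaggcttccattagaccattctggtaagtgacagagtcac
Vpreb2, 113 bases, chr16:17980315-17980427, plus strand: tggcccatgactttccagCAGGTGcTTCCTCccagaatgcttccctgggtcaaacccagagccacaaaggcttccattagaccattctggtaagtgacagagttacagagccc
Igll1, 250 bases, chr16:16863986-16864235, minus strand: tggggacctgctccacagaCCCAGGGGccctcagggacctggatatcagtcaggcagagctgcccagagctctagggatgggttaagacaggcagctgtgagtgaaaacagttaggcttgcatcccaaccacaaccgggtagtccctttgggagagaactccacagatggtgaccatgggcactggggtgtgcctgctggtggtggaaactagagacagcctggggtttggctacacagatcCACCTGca
Vpreb3, 250 bases, chr10:75948050-75948299, plus strand: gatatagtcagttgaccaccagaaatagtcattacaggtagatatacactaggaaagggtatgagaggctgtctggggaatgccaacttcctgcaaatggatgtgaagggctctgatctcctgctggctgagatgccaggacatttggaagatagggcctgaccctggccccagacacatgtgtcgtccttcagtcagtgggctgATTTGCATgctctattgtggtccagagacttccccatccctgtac
Dntt, 250 bases, chr19:41029025-41029274, plus strand: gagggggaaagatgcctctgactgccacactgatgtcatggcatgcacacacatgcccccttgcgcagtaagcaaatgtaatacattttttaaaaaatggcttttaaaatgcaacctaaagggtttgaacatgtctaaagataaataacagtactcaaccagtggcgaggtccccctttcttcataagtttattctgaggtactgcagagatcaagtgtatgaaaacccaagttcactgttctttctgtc

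Vpreb1 and Vpreb2 hold the same E-box and PU.1 site side by side, at -88 and -81 in Vpreb1 and at -232 and -225 in Vpreb2. The RefSeq start of Vpreb2 lies inside a GENCODE exon, so these positions are not distances from like starts. Over an aligned stretch of 106 bases, 104 were identical between the 250 bases before their starts. That stretch ran from the first base of the Vpreb2 window to the last of the Vpreb1 window, so the windows set its length. Igll1 has an EBF core at -231 and an E-box at -8, Vpreb3 has an octamer at -45, and the Dntt window holds none of the 4 motifs. RefSeq promoters were found for 25 of the 31 genes, and for the first start listed for each gene the 250 bases were searched. The E-box was present in 12 of these 25 (48.0%) against 17.1% of 27025 promoters, and the PU.1 site in 7 (28.0%) against 23.1%. An EBF core was present in 4 (16.0%) against 11.7% and the octamer in 3 (12.0%) against 1.61%. No match of the searched motifs overlapped another in the windows shown. A match is a description of the letters only.

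Total counts ranged from 18930841 to 23064578 per library, and a floor of 3 counts corresponded to 0.132 to 0.159 CPM, the unit of level used throughout, in which counts are scaled to the normalized library size. Values per library are given in the order of replicates 1 to 4. All 18 genes of inner ear identity were tested, with a summed level of 4590 to 6360 CPM over the wild-type and 4200 to 6420 CPM over the mutant libraries. Bone was present too, since 8 osteoblast genes summed to 2770 to 4820 CPM over the wild-type and 3500 to 5520 CPM over the mutant libraries. Thra, the mutated gene, stood at 107 ± 8.28 CPM (wild-type) against 127 ± 10.2 CPM (mutant, SD, n = 4 per genotype), with a log2 fold change of 0.24 (SE 0.089) and an adjusted p of 0.924 in edgeR, and gene counts do not show a frameshift. Mutant replicate 2 had the highest summed level of the B cell genes among the mutant libraries, so values without it are given beside the results. It was singled out from these same values, and the outlier check reported further on flagged it for no gene.

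Of the 31 genes, 29 were lower on average in mutant than in wild-type libraries and none passed the threshold. The summed level of all 31 stood at 898, 1120, 644 and 1020 CPM in the wild-type and 432, 879, 477 and 640 CPM in the mutant libraries. Mutant replicate 2 lay among the wild-type libraries in this sum, and mutant replicates 1, 3 and 4 lay below all of them. Mutant replicate 4 did so narrowly, at 640 CPM against 644 CPM in wild-type replicate 3. Ebf1, which is also made outside B cells, stood at 156 CPM in mutant replicate 4 and 184 CPM in wild-type replicate 3. That difference is wider than the gap between the sums, so the place of mutant replicate 4 rests on Ebf1. The median log2 fold change (mutant minus wild-type) was -0.83, against -0.01 over the 21392 genes tested, of which 51.7% were negative. In edgeR, 0 of the 31 passed an adjusted p under 0.05, where 9 of all genes tested (0.0421%) did, 8 of them on the lower side (0.0374%). An unadjusted p under 0.05 was found for 11 of the 31 on the lower side (35.5%) and 0 on the higher side, against 3.09% and 2.21% of all genes tested. DESeq2 gave 17 on the lower side at an unadjusted p under 0.05, against 3.69%. It called 2 of the 31 lower at an adjusted p under 0.05, Dntt (adjusted p = 0.00688) and Blnk (0.0396), against 0.229% of genes. In a tissue sample fewer B cells and less RNA per cell cannot be told apart.

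The edgeR count of 11 depended on single libraries. It was 7, 6, 18 and 6 without wild-type replicates 1 to 4, against 2.29%, 1.62%, 5.91% and 1.69% of all genes in those fits. It was 6, 25, 6 and 9 without mutant replicates 1 to 4, against 3.32%, 4.85%, 1.81% and 2.07%. The median log2 fold change of the 31 was -0.85, -0.59, -1.02 and -0.78 without the wild-type replicates in turn and -0.62, -1.21, -0.66 and -0.85 without the mutant replicates. Mutant replicate 2, whose removal gave the most negative median, was singled out from the values of these same genes. Without it the lowest adjusted p in edgeR was 0.189. Every gene but Vpreb1, Vpreb2 and Lef1 then had a more negative value. With the form of the title as a covariate the count was 7, against 4.28% of all genes. For all 31 genes the mutant to wild-type ratio was lower between libraries with single-number titles than between those with 2 numbers. The labels do not say whether the title forms were processed apart, and their part in these values was not tested.

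**Figure D1:**
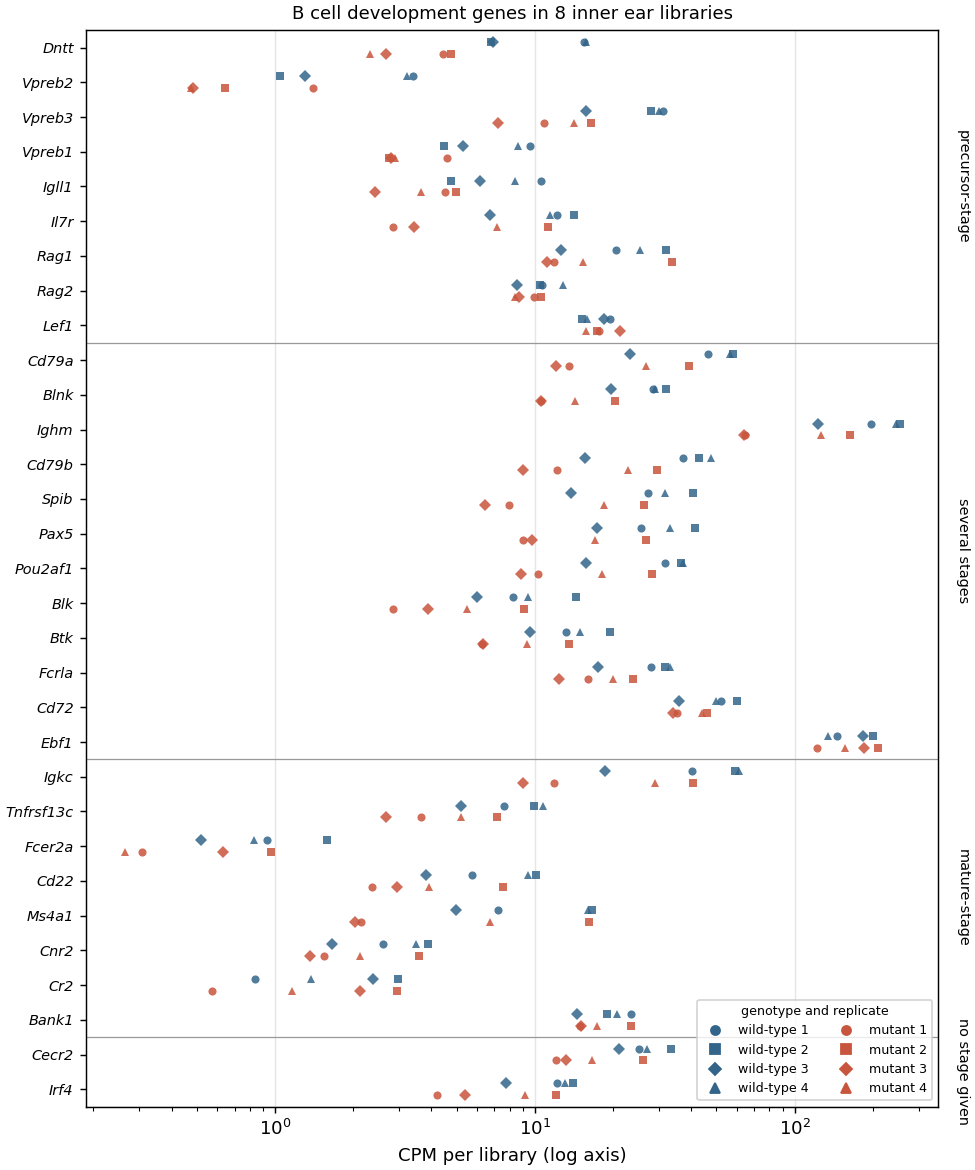
Level of each of the 31 genes in CPM on a log axis, with 1 point per library, wild-type above and mutant below in each row, and the marker shape giving the replicate. Dntt is the only gene whose 4 mutant libraries all lie below the 4 wild-type libraries, and mutant replicate 2 lies among the wild-type libraries for most genes.

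Dntt, which encodes the terminal transferase that adds bases at heavy chain joints, had the largest difference. At chr19:41029275-41059525, it was counted at 15.5, 6.77, 6.92 and 15.8 CPM in the wild-type libraries and at 4.43, 4.78, 2.67 and 2.33 CPM in the mutant libraries. All 4 mutant libraries lay below all 4 wild-type libraries, a separation found for no other of the 31 and for 1.41% of all genes tested. Its means were 11.2 ± 5.08 CPM (wild-type) against 3.55 ± 1.23 CPM (mutant, SD, n = 4 per genotype). The log2 fold change was -1.66 with an SE of 0.38, and the adjusted p in edgeR was 0.597. By title form, with 1 number and then with 2, the log2 ratios of its means were -2.21 and -0.88. Without mutant replicate 2 the log2 fold change was -1.84.

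The surrogate light chain genes and Vpreb3 had log2 fold changes between -1.56 and -0.94. Vpreb1 and Vpreb2 encode the variable-like part, Igll1 encodes λ5, the constant-like part, and Vpreb3 encodes a related protein made in B cell precursors. Vpreb1 (chr16:16868403-16870843) stood at 9.57, 4.46, 5.31 and 8.60 CPM in the wild-type libraries and at 4.61, 2.76, 2.81 and 2.91 CPM in the mutant libraries. Wild-type replicates 1 and 4 were highest, and mutant replicate 1 overlapped the lowest wild-type library. The mean was 6.98 ± 2.48 CPM (wild-type) against 3.27 ± 0.893 CPM (mutant, SD, n = 4 per genotype). That difference did not pass in edgeR (log2 fold change -1.09, SE 0.29, adjusted p = 0.867). Vpreb2 (chr16:17980428-17981273) was found at 3.39, 1.05, 1.30 and 3.22 CPM in the wild-type libraries and at 1.40, 0.644, 0.485 and 0.476 CPM in the mutant libraries. Its counts in mutant replicates 2, 3 and 4 were 14, 10 and 9, so its log2 fold change of -1.56 (SE 0.51) is known only roughly. The longest protein-coding transcripts of Vpreb1 and Vpreb2 were identical at 739 of 759 aligned bases (97.4%). The split of reads between these copies is therefore uncertain, and so is the level of either one alone. Vpreb1 also overlaps Top3b on the opposite strand, which had 567 to 753 counts per library and a log2 fold change of 0.08, and whether the counting used strand is not stated.

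Igll1 (chr16:16860671-16863985) had values of 10.6, 4.78, 6.14 and 8.42 CPM in the wild-type libraries and 4.52, 4.97, 2.42 and 3.65 CPM in the mutant libraries. Mutant replicate 2 was just above the lowest wild-type library, and the other mutant libraries were below it (log2 fold change -0.94, SE 0.30, adjusted p = 0.907 in edgeR). Vpreb3 (chr10:75943057-75949657) stood at 31.2, 28.0, 15.8 and 30 CPM in the wild-type libraries and at 10.9, 16.4, 7.22 and 14.2 CPM in the mutant libraries. It was the most abundant of the 4 per length, at 30.5 ± 8.26 CPM per kilobase of exon in wild-type libraries, against 5.83 ± 2.07 for Vpreb1 and 3.46 ± 1.18 for Igll1 (SD, n = 4). Its log2 fold change was -1.11 (SE 0.29, adjusted p = 0.867 in edgeR). All 4 genes had an unadjusted p under 0.05 in edgeR, against 3.09% of all genes tested on the lower side, and 0 had an adjusted p under 0.05. Together they summed to 54.7, 38.3, 28.5 and 50.2 CPM in the wild-type and 21.5, 24.8, 12.9 and 21.2 CPM in the mutant libraries. Every mutant library was below every wild-type library in this sum, of which Vpreb3 made up the larger part. No single one of the 4 separated the genotypes. The 4 were summed with their fold changes known, so this separation follows in part from the choice. How often sums of other genes separate the genotypes was not examined. Without Vpreb3 the sum was 23.5, 10.3, 12.7 and 20.2 CPM in the wild-type and 10.5, 8.37, 5.72 and 7.04 CPM in the mutant libraries, and mutant replicate 1 then lay above wild-type replicate 2. By title form, again with 1 number and then with 2, the log2 ratios of their means were -1.27 and -0.81 for Vpreb1, -1.81 and -1.06 for Vpreb2, -1.22 and -0.56 for Igll1 and -1.28 and -0.89 for Vpreb3.

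The recombinase genes gave another picture. Rag1, which encodes the cutting subunit, stood at 20.6, 31.9, 12.6 and 25.5 CPM in the wild-type libraries and at 11.9, 33.7, 11.1 and 15.4 CPM in the mutant libraries. Mutant replicate 2 was the highest of the 8 libraries, and the log2 fold change was -0.33 (SE 0.42). Without mutant replicate 2 it was -0.83 (SE 0.30). Rag2, which encodes its partner, varied little, at 10.7, 10.5, 8.53 and 12.8 CPM in the wild-type libraries and at 9.92, 10.6, 8.67 and 8.36 CPM in the mutant libraries (log2 fold change -0.18, SE 0.15). Both genes overlap B230118H07Rik, with 919 to 1535 counts per library, Rag1 on the same strand and Rag2 on the opposite one. Il7r, the receptor subunit for the growth factor interleukin 7 and a gene also used by T cells, stood at 12.2, 14.2, 6.71 and 11.4 CPM in the wild-type libraries and at 2.85, 11.2, 3.44 and 7.15 CPM in the mutant libraries. Mutant replicates 1 and 3 were below all wild-type libraries (log2 fold change -0.85, SE 0.44). Lef1, a transcription factor of B cell progenitors and of many tissues under Wnt signals, was at 19.5, 15.2, 18.4 and 15.9 CPM in the wild-type libraries and at 17.6, 17.4, 21.3 and 15.7 CPM in the mutant libraries. It was 1 of 2 genes of the set with a positive value (log2 fold change 0.06, SE 0.13), and its highest library was 1.40 times its lowest.

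Genes used at several stages included the signalling chains of the B cell receptor. Cd79a (chr7:24897381-24902197) stood at 46.3, 58.1, 23.2 and 56.4 CPM in the wild-type libraries and at 13.5, 39.3, 12.1 and 26.7 CPM in the mutant libraries. Cd79b (chr11:106311341-106314762) stood at 37.1, 42.9, 15.6 and 47.6 CPM in the wild-type libraries and at 12.2, 29.6, 9.01 and 22.9 CPM in the mutant libraries. Mutant replicates 1 and 3 were below every wild-type library in both, and wild-type replicate 3 was the lowest of its genotype. The log2 fold changes were -1.01 (SE 0.44) and -0.96 (SE 0.46), with edgeR adjusted p = 0.924 and 0.925. Ighm, the heavy chain of IgM and the most abundant of the 31 per length at 108 ± 31.9 CPM per kilobase in wild-type libraries (SD, n = 4), was measured at 196, 254, 123 and 246 CPM in the wild-type libraries and at 64.5, 164, 63.7 and 126 CPM in the mutant libraries. Its values followed those of Cd79a in which libraries were high and low (log2 fold change -0.97, SE 0.36, adjusted p = 0.924 in edgeR).

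Blnk encodes the adaptor that passes the receptor signal to its effector enzymes. At chr19:40928927-40994535, it stood at 28.4, 32.1, 19.7 and 29.1 CPM in the wild-type libraries and at 10.6, 20.4, 10.6 and 14.3 CPM in the mutant libraries. Mutant replicate 2 just overlapped wild-type replicate 3, and the other mutant libraries were lower than all wild-type libraries. The means were 27.3 ± 5.31 CPM (wild-type) against 14.0 ± 4.62 CPM (mutant, SD, n = 4 per genotype). That difference did not pass in edgeR (log2 fold change -0.97, SE 0.24, adjusted p = 0.798). The kinase genes of the same pathway had less negative values with larger SEs. Without mutant replicate 2, Blk (-1.22) and Blnk (-1.21) were alike. Btk, the Bruton kinase, was at 13.2, 19.5, 9.57 and 15 CPM in the wild-type libraries and at 6.28, 13.6, 6.35 and 9.32 CPM in the mutant libraries (log2 fold change -0.69, SE 0.30). Blk, a Src-type kinase of B cells, was at 8.22, 14.4, 5.98 and 9.43 CPM in the wild-type libraries and at 2.85, 9.10, 3.88 and 5.51 CPM in the mutant libraries (log2 fold change -0.83, SE 0.39). In both, mutant replicate 2 alone lay within the wild-type range.

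Pax5 (chr4:44524757-44710487), the factor that holds cells in the B lineage, stood at 25.7, 41.2, 17.3 and 33.1 CPM in the wild-type libraries and at 9.0, 26.9, 9.79 and 17 CPM in the mutant libraries (log2 fold change -0.90, SE 0.40). Pou2af1, the coactivator that works on octamer sites, was at 31.7, 36.6, 15.8 and 37.1 CPM in the wild-type libraries and at 10.3, 28.3, 8.82 and 18.2 CPM in the mutant libraries (log2 fold change -0.89, SE 0.42). Spib, an Ets factor of B cells and plasmacytoid dendritic cells, was at 27.4, 40.6, 13.8 and 31.6 CPM in the wild-type libraries and at 7.95, 26.3, 6.44 and 18.4 CPM in the mutant libraries (log2 fold change -0.94, SE 0.51). All 3 had mutant replicate 2 within the wild-type range and mutant replicates 1 and 3 below it. Fcrla, an intracellular Fc receptor-like protein, had values of 27.9, 31.7, 17.5 and 33.3 CPM in the wild-type libraries and 16.0, 23.8, 12.4 and 20.0 CPM in the mutant libraries (log2 fold change -0.61, SE 0.25). It overlaps Gm2962 on the same strand, which had 74 to 137 counts per library and a log2 fold change of -0.26. Cd72, an inhibitory coreceptor, stood at 52.1, 59.8, 35.8 and 50.0 CPM in the wild-type libraries and at 35.3, 46.1, 34.0 and 44.2 CPM in the mutant libraries (log2 fold change -0.31, SE 0.17). Cd72 overlaps Tesk1 on the opposite strand, which had 714 to 1083 counts per library. Ebf1, the factor that starts the B cell programme and is also made in connective tissue and fat precursors, stood apart from the rest. Ebf1 (chr11:44617317-45008091) was at 145, 200, 184 and 134 CPM in the wild-type libraries and at 122, 209, 185 and 156 CPM in the mutant libraries, with the genotypes fully overlapping (log2 fold change 0.02, SE 0.19), a sign that changed with single libraries left out.

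**Figure D2:**
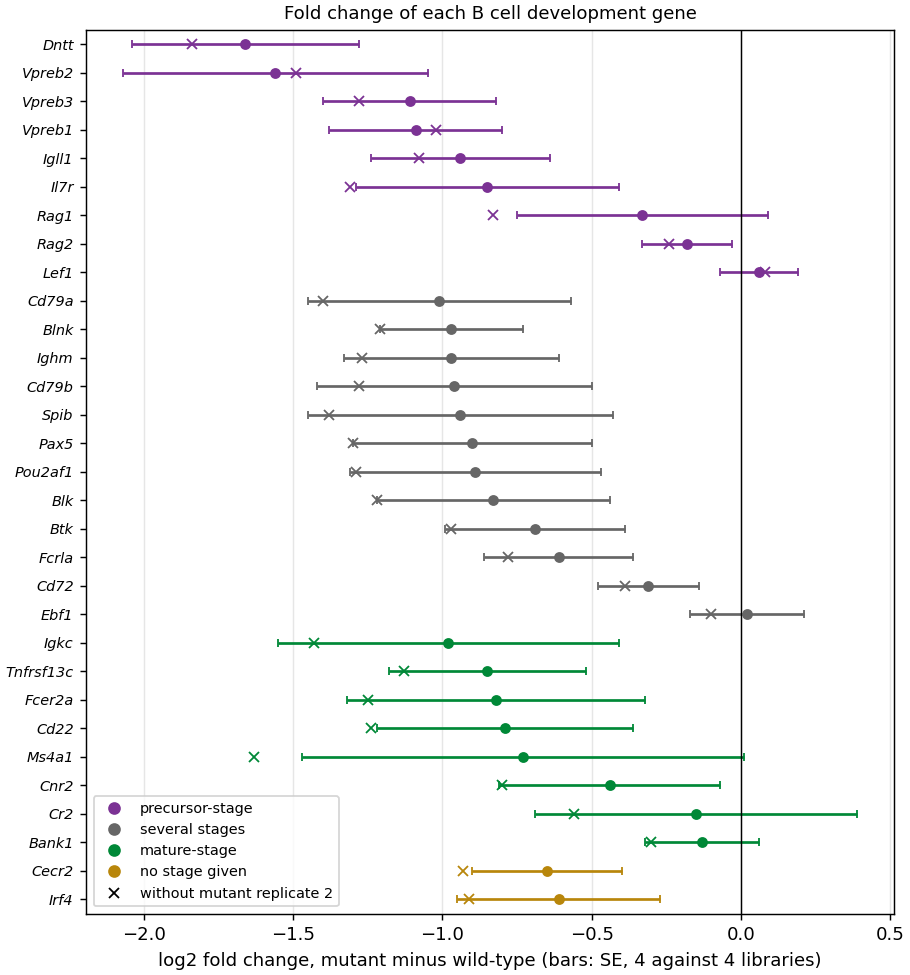
Log2 fold change (mutant minus wild-type) of each of the 31 genes by stage, as circles with SE from edgeR over 4 against 4 libraries, and crosses for the same value without mutant replicate 2. Values run from -1.66 for Dntt to 0.06 for Lef1, and most crosses lie to the left of their circles.

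The most abundant mature-stage gene per length was Igkc, the κ light chain. Igkc (chr6:70726435-70726966) was found at 40.2, 59.1, 18.7 and 60.9 CPM in the wild-type libraries and at 11.9, 40.6, 9.01 and 29.1 CPM in the mutant libraries. Mutant replicates 2 and 4 lay within the wild-type range (log2 fold change -0.98, SE 0.57, adjusted p = 0.955 in edgeR). Ms4a1, which encodes CD20, was at 7.20, 16.6, 4.99 and 16.1 CPM in the wild-type libraries and at 2.15, 16.2, 2.04 and 6.72 CPM in the mutant libraries. Mutant replicate 2 stood beside wild-type replicates 2 and 4, and the log2 fold change of -0.73 had an SE of 0.74. Without mutant replicate 2 the log2 fold change of Ms4a1 was -1.63 (SE 0.62), the largest shift of any of the 31.

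Tnfrsf13c, the receptor for the survival factor BAFF, was the only mature-stage gene with an unadjusted p under 0.05 in edgeR. It stood at 7.62, 9.92, 5.20 and 10.8 CPM in the wild-type libraries and at 3.64, 7.13, 2.67 and 5.19 CPM in the mutant libraries (log2 fold change -0.85, SE 0.33, adjusted p = 0.924). Cd22, an inhibitory sialic acid-binding receptor, was at 5.71, 10.1, 3.80 and 9.43 CPM in the wild-type libraries and at 2.37, 7.54, 2.96 and 3.92 CPM in the mutant libraries (log2 fold change -0.79, SE 0.43). For both genes 1 or more mutant libraries lay within the wild-type range. Cnr2, a cannabinoid receptor of B cells and myeloid cells, was at 2.60, 3.89, 1.66 and 3.50 CPM in the wild-type libraries and at 1.54, 3.59, 1.36 and 2.12 CPM in the mutant libraries (log2 fold change -0.44, SE 0.37). Bank1, a scaffold protein of the receptor pathway, was at 23.4, 19.0, 14.5 and 20.7 CPM in the wild-type libraries and at 14.9, 23.5, 15.1 and 17.4 CPM in the mutant libraries, with no mutant library below the lowest wild-type one (log2 fold change -0.13, SE 0.19).

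Cr2 and Fcer2a were the scarcest of the mature-stage genes, whereas Ms4a1, Tnfrsf13c and Cd22 averaged 11.2, 8.39 and 7.25 CPM in wild-type libraries. Cr2, a complement receptor that follicular dendritic cells also make, was at 0.836, 2.99, 2.39 and 1.38 CPM in the wild-type libraries and at 0.571, 2.94, 2.13 and 1.16 CPM in the mutant libraries (log2 fold change -0.15, SE 0.54), and its sign changed when single libraries were left out. Fcer2a, the low-affinity IgE receptor, had 5 to 30 counts per library and a mean of 0.963 ± 0.444 CPM (wild-type) against 0.542 ± 0.326 CPM (mutant, SD, n = 4 per genotype). Its difference was not past the threshold (log2 fold change -0.82, SE 0.50). Per kilobase of exon Cr2 and Fcer2a were the lowest of the 31 in wild-type libraries, at 0.234 ± 0.120 and 0.311 ± 0.143 CPM (SD, n = 4). Of the 2 genes with no stage, Cecr2, a chromatin remodelling factor, was at 25.1, 33.6, 21.1 and 27.0 CPM in the wild-type libraries and at 12.1, 26.1, 13.2 and 16.6 CPM in the mutant libraries (log2 fold change -0.65, SE 0.25). Irf4, a transcription factor of pre-B cells and plasma cells, was at 12.2, 14.0, 7.75 and 13.1 CPM in the wild-type libraries and at 4.21, 12.1, 5.38 and 9.21 CPM in the mutant libraries (log2 fold change -0.61, SE 0.34). In both genes mutant replicate 2 lay within the wild-type range and mutant replicates 1 and 3 lay below it.

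Precursor-stage and mature-stage genes were then set against each other between the genotypes. Of the 9 precursor-stage genes 8 had negative log2 fold changes, with a median of -0.94 and 5 at an unadjusted p under 0.05 in edgeR. All 8 mature-stage genes were negative, with a median of -0.76 and 1 at an unadjusted p under 0.05 in edgeR. Over all genes tested 51.7% were negative and 3.09% were lower at that p. Such counts depend on the SE as well as on the size of the difference, and the SE of Ms4a1 and Igkc was 0.74 and 0.57. The precursor-stage genes summed to 133, 117, 81.7 and 132 CPM in the wild-type and 68.2, 103, 60.1 and 70.1 CPM in the mutant libraries. The mature-stage genes summed to 88.4, 123, 51.8 and 124 CPM in the wild-type and 37.4, 103, 35.9 and 65.8 CPM in the mutant libraries. In both sums mutant replicates 1 and 3 were below all wild-type libraries and mutant replicate 2 was not. Mutant libraries held on average 65.0% of the wild-type level of precursor-stage genes and 62.5% of that of mature-stage genes. The sums include genes whose means differed little, namely Lef1 and Rag2 (105% and 88.2% of wild-type) and Bank1 and Cr2 (91.5% and 89.6%).

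The ratio of the precursor-stage to the mature-stage sum was 1.51, 0.948, 1.58 and 1.07 in the wild-type libraries and 1.82, 1.0, 1.67 and 1.07 in the mutant libraries. It averaged 1.27 ± 0.314 for the wild-type and 1.39 ± 0.419 for the mutant libraries (SD, n = 4 per genotype), a difference well within the spread of either genotype. On the log2 scale the difference was 0.11, against a pooled SD of 0.41, and it was 0.14 and 0.08 by title form. The ratio was alike in libraries whose titles hold neighbouring numbers, namely the wild-type and mutant libraries of 1 replicate number, which differed by 0.28, 0.08, 0.09 and 0.00 (log2, mutant minus wild-type, replicates 1 to 4). This likeness was noticed after the values had been seen, and the labels do not say what neighbouring numbers share.

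**Figure D3:**
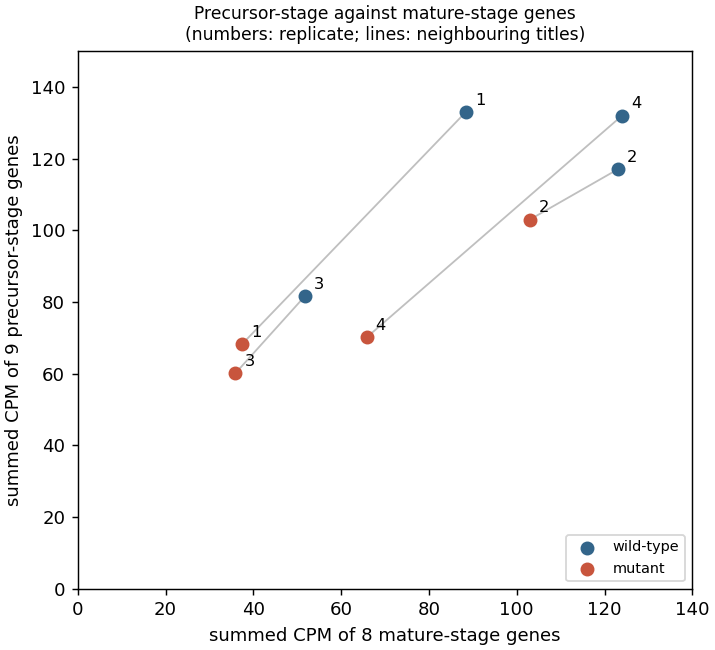
Summed CPM of the 9 precursor-stage genes against that of the 8 mature-stage genes, with 1 point per library, the replicate number beside it and a line between libraries whose titles hold neighbouring numbers. Each mutant library lies nearer the origin than its neighbour, while the ratio of the sums runs from 0.948 to 1.82 with the genotypes overlapping.

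The result depended on which genes stood for the precursor stage, an alternative chosen after seeing the data. With Vpreb1, Vpreb2, Igll1 and Dntt alone against the mature-stage genes, the difference in log2 ratio (mutant minus wild-type) was -0.50. These 4 genes were picked with their fold changes known, so the sign follows in part from the choice. With Igkc left out of the mature-stage genes the difference was -0.12. With Lef1, Rag2 and Bank1 left out of their lists it was 0.05. Relative to Ighm, Vpreb1, Vpreb2 and Igll1 together amounted, in CPM per 100 CPM of Ighm, to 12.0, 4.06, 10.4 and 8.24 in the wild-type libraries and 16.3, 5.10, 8.98 and 5.59 in the mutant libraries. Wild-type replicate 2 and mutant replicate 2 had the lowest ratios, and mutant replicate 1 had the highest. Dntt per 100 of Ighm was 7.90, 2.67, 5.64 and 6.44 in the wild-type libraries and 6.88, 2.92, 4.19 and 1.85 in the mutant libraries. Mutant replicate 4 was lowest there and the genotypes overlapped.

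Some of the 31 genes differed little between the libraries with the least and the most Cd79a. Mutant replicate 3 had the lowest level of Cd79a and wild-type replicate 2 the highest. Mutant replicate 3 held 20.8% of the Cd79a level of wild-type replicate 2, 15.3% of Igkc and 12.2% of Ms4a1. For Ebf1, Rag2, Bank1 and Cr2 the share was 92.8%, 82.6%, 79.5% and 71.2%, and for Lef1 it was 140%. Since these libraries are 1 of each genotype, the shares overlap with the comparison of the genotypes. Mutant replicate 3 was the lowest library for 15 of the 31 genes and mutant replicate 1 for 9, while wild-type replicate 2 was the highest for 16.

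A further 34 genes of B cells, not among the 31, were all tested. On the log2 scale 31 of the 34 differences were negative, with a median log2 fold change of -0.53 and 0 called. On the lower side 4 had an unadjusted p under 0.05 in edgeR (11.8%), against 3.09% of all genes tested. The 4 were the E2A gene Tcf3 (log2 fold change -0.34, SE 0.093), the signalling adaptor Pik3ap1 (-0.42, SE 0.17), the surface protein Cd24a of immature cells (-0.57, SE 0.24) and the chemokine receptor Ccr7 (-0.96, SE 0.41). Cd24a averaged 486 CPM in wild-type libraries, against 46.0 CPM for Cd79a. Its highest mutant library was replicate 1 (409 CPM), in which the 31 genes had their lowest sum (432 CPM). Of 10 plasma cell genes 4 were tested and 2 were negative, and Mzb1, a chaperone for IgM also made by other B cells, had the smallest p (-0.79, SE 0.29). Ighg1, Ighg2b, Ighg2c and Tnfrsf17 were each at 0 counts in at least 1 library.

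Markers of other cells that make some of the 31 genes were looked at next, and none was called. T cells and thymocytes, which share Rag1, Rag2, Dntt, Il7r and Lef1, gave a summed level over 14 markers of 13.2 to 16.2 CPM over the wild-type and 10.9 to 17.4 CPM over the mutant libraries, with 4 of 6 tested genes negative. Cd3g, Cd8b1 and Cd6 were each at 0 counts in at least 1 library. Of the 7 markers of plasmacytoid dendritic cells, which share Spib, 5 were tested and 4 were negative, from Irf8 (log2 fold change -0.65, SE 0.32), a factor that B cells also make, and Cox6a2 (-0.60, SE 0.44) to Siglech (-0.06, SE 0.28). They had a sum of 162 to 194 CPM over the wild-type and 154 to 178 CPM over the mutant libraries, and Klk1 and Cd300c were at 0 counts in at least 1 library. Irf8, Siglech and Cox6a2 averaged only 14.6, 3.72 and 0.696 CPM in wild-type libraries, against 64.2 CPM for Pacsin1 (log2 fold change -0.12, SE 0.20). The sum therefore says little about Irf8, Siglech and Cox6a2, and is not a measure of the amount of these cells. Natural killer cell markers summed to 1.82 to 4.20 CPM over the wild-type and 1.60 to 3.86 CPM over the mutant libraries. The 10 macrophage genes summed to 321 to 369 CPM over the wild-type and 336 to 361 CPM over the mutant libraries.

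Most genes of erythroid cells, neutrophils, platelets and proliferation were also lower on average in mutant libraries, without passing the test. Progenitor cell genes were mixed, with 3 of 5 tested genes negative (median log2 fold change -0.17, 0 called). They ran from Myb (-0.85, SE 0.44) to Cd34 (0.37, SE 0.21), and the list summed to 156 to 167 CPM over the wild-type and 139 to 167 CPM over the mutant libraries. All 11 tested erythroid genes were negative (median log2 fold change -0.98, 0 called), with a summed level of 13000 to 50200 CPM over the wild-type and 7730 to 19200 CPM over the mutant libraries. Epor, the erythropoietin receptor, had the smallest p of them (-0.93, SE 0.38). All 15 genes of neutrophils and their precursors were negative as well (median -0.35, 0 called), with 0 at an unadjusted p under 0.05 in edgeR. They summed to 445 to 2160 CPM over the wild-type and 453 to 1810 CPM over the mutant libraries. Of the 6 megakaryocyte and platelet genes 5 were negative (median -0.84, 0 called), led by the platelet glycoprotein Gp9 (-1.37, SE 0.46), at 66.6 to 192 CPM over the wild-type and 66.3 to 99.4 CPM over the mutant libraries. All 13 proliferation genes were negative (median -0.83, 0 called), at 429 to 1170 CPM over the wild-type and 309 to 620 CPM over the mutant libraries. Of these, 11 had an unadjusted p under 0.05 in edgeR (84.6%), against 3.09% of all genes tested on the lower side. In marrow stroma 2 of 6 genes were negative (median 0.08, 0 called), and Adipoq, the fat cell hormone adiponectin, had the smallest p (-1.33, SE 0.54). Il7, the ligand of the receptor that Il7r encodes, stood at 1.70 ± 0.357 CPM (wild-type) and 2.02 ± 0.314 CPM (mutant, SD, n = 4 each). No defining marker of the erythroid, neutrophil, platelet and proliferation lists was at 0 in any library. Their part in the values of the B cell genes was not tested.

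Within each genotype the sums of the 31 genes and of the neutrophil genes put the libraries in the same order. From highest to lowest this was replicate 2, 4, 1 and 3 in wild-type and replicate 2, 4, 3 and 1 in mutant libraries. The order of mutant replicates 3 and 1 rested on Ebf1, which is also made outside B cells. Ebf1 stood at 185 and 122 CPM in them, a difference wider than that between their sums (477 and 432 CPM). The ratio of single genes still varied. Cd79a per 100 of Alas2, the erythroid enzyme that starts heme synthesis, was 31.8, 18.2, 28.5 and 22.9 in the wild-type libraries and 9.18, 25.2, 23.6 and 36.2 in the mutant libraries. Mutant replicate 1, at 9.18, was the lowest, and mutant replicate 4, at 36.2, was the highest. Cd79a per 100 of S100a9, a neutrophil protein, was 16.3, 9.65, 18.7 and 13.1 in the wild-type libraries and 10.2, 7.57, 7.48 and 8.42 in the mutant libraries. Mutant replicate 2 had the highest neutrophil sum of the mutant libraries (1810 CPM) as well as the highest B cell sum, and its ratio of 7.57 lay with those of mutant replicates 3 and 4. The genotypes overlapped through mutant replicate 1 and wild-type replicate 2 alone. These ratios were chosen after the values had been seen.

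**Figure D4:**
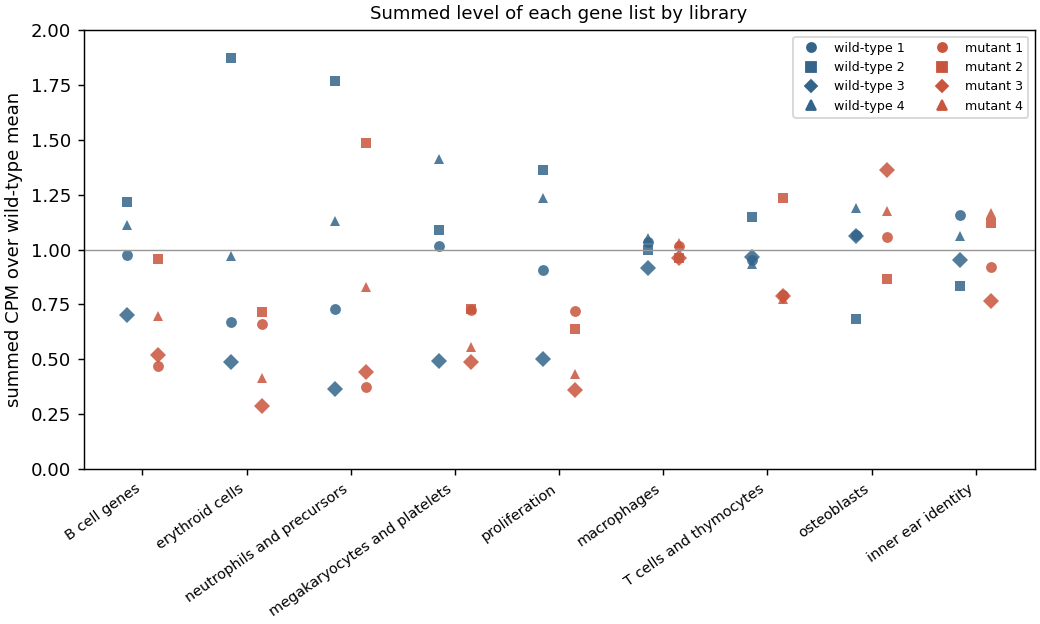
Summed CPM of each gene list in each library, divided by the wild-type mean of that list, with blue for wild-type, red for mutant and the marker shape for the replicate. B cell, erythroid, neutrophil, platelet and proliferation genes spread widely between libraries of 1 genotype, whereas the macrophage sums lie close to the wild-type mean.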

How the data were processed

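RNA of whole inner ear at postnatal day 14 was sequenced in 4 wild-type and 4 mutant samples with a total RNA kit that carries molecular identifiers, per the labels' protocols. Per the submitters' processing notes, STAR, HTSeq and FastQC were used with build mm10, with no version stated. Annotation, strand and use of the identifiers were not given in the sources used here. The deposited files hold whole-number counts per symbol, not normalized. Replicates were numbered in accession order, and since nothing shows separate animals, p-values reflect only the spread of these 8 samples, part of which may be technical.

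Of 33027 symbols with a count, 21392 passed edgeR's default filter. The test was edgeR 4.0.16 (R 4.3.3) with TMM scaling, robust quasi-likelihood and genotype as the only term. P-values were two-sided and adjusted by Benjamini-Hochberg over all genes tested. The fit was tested on simulated data in which every gene had the same spread between libraries beyond counting error. That simulation does not show how the fit performs for genes that varied more. The SE is the log2 fold change divided by the square root of F. CPM values used the normalized library sizes. Log2 ratios by title form are ratios of mean CPM. Coordinates and exon lengths came from GENCODE M21 (GRCm38), in which 45236 of the symbols were found, and promoters from RefSeq. DESeq2 was version 1.42.0. The genes, their stages and the lists were chosen with earlier results of these data known. Values in every library are given for genes with a mean of at least 1 CPM, and up to 4 genes with the smallest p were eligible from each other list. Alternatives were 3 other normalizations, no filter, a filter at 1 CPM in 4 libraries, DESeq2, title form as covariate, a block of neighbouring title numbers, haemoglobin genes left out and each library left out. Floors cover counting error only.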

Additional observations from a re-analysis of the deposited data

Results flagged for a closer look

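Vpreb1 in mutant replicate 1 stood far from the other mutant libraries, at 4.61 CPM against 2.91 CPM for the next highest. The gap was 0.918 of the range of the 4 mutant libraries, above the critical value of 0.829. Chance alone places about 5% of such groups past that value, and 82 groups of 4 were examined. Mutant replicate 1 was also the highest mutant library for Vpreb2, at 1.40 CPM, and not for Vpreb3 or Igll1. The split of reads between Vpreb1 and Vpreb2 is uncertain.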

How the results depend on the processing

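No gene of the 31 was called by edgeR under any alternative run, whereas DESeq2 called 2, Dntt (log2 fold change -1.66) and Blnk (-0.96). Over all genes, where edgeR called 1 higher and 8 lower, DESeq2 called 19 higher and 49 lower, and title form as covariate left 4 lower. With each library left out in turn, 2 to 5 genes were higher and 4 to 9 lower. Of 526 log2 fold changes of single genes under the alternatives, 7 changed sign, all with 1 library left out. These were values of Ebf1 (-0.10 to 0.14), Cr2 (-0.56 to 0.15) and Lef1 (-0.03 to 0.14), whose differences were near 0. The difference in log2 ratio of precursor-stage to mature-stage genes ran from -0.04 to 0.25 with each library left out. It was negative without wild-type replicate 2 (-0.02) or mutant replicate 1 (-0.04), with Igkc left out (-0.12) and with Vpreb1, Vpreb2, Igll1 and Dntt alone as precursor-stage genes (-0.50), and the cause was not tested.

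The labels do not say whether neighbouring title numbers pair the samples. With neighbouring title numbers as a replicate block, which assumes a pairing, edgeR called 17 genes higher and 12 lower. Of the 31, 0 were called, 24 had an unadjusted p under 0.05 on the lower side, against 7.08% of all genes, and the lowest adjusted p was 0.0562, that of Vpreb3. Deviations from the genotype means correlated across genes within neighbours at 0.13, 0.25, 0.19 and -0.04, and wild-type replicate 4 correlated best with mutant replicate 1 (0.15).

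With 14 or fewer counts per library for Vpreb2 in mutant replicates 2, 3 and 4, depth limits what can be said of its size.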

Other observations

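The variable segments of the immunoglobulin genes were looked at as a separate set after the values had been seen. Heavy chain variable segments (Ighv) took 158, 167, 46 and 225 counts in wild-type replicates 1 to 4 and 35, 161, 31 and 67 in mutant replicates 1 to 4. Of 183 such symbols 60, 66, 32 and 76 had a count in wild-type replicates 1 to 4 and 25, 60, 22 and 36 in mutant replicates 1 to 4. Mutant replicate 2 again stood beside wild-type replicates 1 and 2, and wild-type replicate 3 stood near the low mutant libraries. Fewer counts by themselves leave fewer segments above 0. Kappa chain variable segments (Igkv, 160 symbols) took 177, 234, 68 and 262 counts in wild-type replicates 1 to 4 and 40, 208, 28 and 89 in mutant replicates 1 to 4, and 47, 60, 37 and 67 of them had a count in wild-type replicates 1 to 4 and 29, 59, 16 and 37 in mutant replicates 1 to 4.

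Light chain and IgD ratios overlapped between the genotypes. The λ constant genes Iglc1, Iglc2 and Iglc3 together, per 100 of Igkc, amounted to 19.7, 45.3, 18.4 and 35.1 in the wild-type libraries and 17.4, 34.0, 24.7 and 30.8 in the mutant libraries. Ighd, the heavy chain of IgD carried by mature B cells, amounted per 100 of Ighm to 4.53, 8.14, 7.97 and 4.34 in the wild-type libraries and 4.22, 10.4, 8.75 and 4.75 in the mutant libraries. Replicates 2 and 3 of both genotypes, whose titles hold 2 numbers, had 7.97 or more, and replicates 1 and 4 had 4.75 or less. Igkc per 100 of Ighm was 20.5, 23.3, 15.2 and 24.8 in the wild-type libraries and 18.4, 24.8, 14.2 and 23.1 in the mutant libraries.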
